A study of Mus musculus with 2 samples.

Results

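Cells that make more protein than their endoplasmic reticulum can fold, or that run short of amino acids, switch on a common set of stress genes. The set described here is 10 of these genes, Atf4, Ddit3, Xbp1, Hspa5, Sdf2l1, Herpud1, Trib3, Chac1, Asns and Ddit4, out of 32285 genes measured. They were taken by symbol as well-known members of the unfolded protein response and the integrated stress response. The cells came from mouse tumours of a Control group and a Motolimod group, motolimod being a synthetic activator of TLR8, a receptor that recognises RNA in endosomes. Each group comprised 5 mice per the labels, with the same tissue digestion and a magnetic selection for CD45, the surface protein of white blood cells, in both groups. They give 1 droplet library per group (3′ single-cell RNA counting) and name neither the strain, the age, the tumour model, the dose, the time of sampling nor whether the mice were pooled. With 1 library per group no difference has a replicate check or a test, and the 95% intervals reflect nothing but counting error.

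The unfolded protein response starts from sensors in the endoplasmic reticulum membrane. One of them, IRE1, splices Xbp1 mRNA into the form that encodes an active transcription factor, which together with ATF6 turns on chaperones such as Hspa5 and degradation factors such as Herpud1. Another, PERK, shares with sensors of amino acid shortage, double-stranded RNA and haem shortage the phosphorylation of eIF2α, which slows translation but favours that of Atf4, and ATF4 in turn activates Ddit3 (CHOP), Trib3, Chac1 and Asns. The 3′ counts used here measure total mRNA, so neither Xbp1 splicing nor Atf4 translation is seen.

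After filters on genes, UMIs (unique molecular identifiers, which count captured mRNA molecules) and mitochondrial content, 7484 Control and 9314 Motolimod barcodes remained, with medians of 14055 and 3742.5 UMIs. The 2 libraries shared 94 barcodes. Cells were gated by the summed level of marker genes, and barcodes over the gates of several lineages were set aside. The gates gave 500 Control and 2498 Motolimod neutrophils (median 2037.5 and 2061 UMIs), 4282 and 4329 macrophages (14979.5 and 6278 UMIs), 290 and 116 dendritic cells, 355 and 442 T cells, 200 and 94 monocytes, and 623 and 66 keratin-positive cells. A gate is a range of marker level and not a sharp type: 6 Control and 50 Motolimod neutrophils, and 67 and 69 macrophages, lay within 1.2-fold above their cut. Neutrophils carried their 9 markers at 730 and 727 per 10000 UMIs and the 10 macrophage markers at 5.40 and 2.85. Keratin-positive cells had Krt8 at 1361 and 1211 CPM (UMIs of the gene per 1000000 UMIs of the class) and Ptprc, which encodes CD45, at only 3.31 and 5.59 CPM. Krt18 (956 and 922 CPM) and Krt19 (268 and 219 CPM) were high as well. The other markers of that gate were at most 4.53 and 4.75 CPM (Epcam). Of these, Cdh1 (0.669 and 0 CPM) and Spint2 (1.34 and 0 CPM) were higher in dendritic cells (21.9 and 31.0, 182 and 127 CPM). No marker used here tells tumour cells from normal epithelium, so they are called keratin-positive throughout.

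The regulatory DNA next to these genes holds known stress elements, and the stretches that carry them are shown because ERSE elements are known targets of ATF6 and XBP1, and CARE of ATF4. All 10 genes matched the RefSeq promoter table (GRCm38.p6), which runs from 250 bases before to 50 bases after each start. The endoplasmic reticulum stress element ERSE, searched on both strands as CCAAT and CCACG with 9 free bases between them, occurred in 39 of 32851 promoters (0.119%). Among the 10 genes it was found only in that of Hspa5, from 65 to 47 bases before the start. ERSE-II, searched as ATTGG and CCACG with 1 free base between them, occurred in 12 promoters (0.0365%), and Herpud1 was the single gene of the set to hold it. The C/EBP-ATF response element CARE, searched as TGATGNAA, occurred in 1304 promoters (3.97%), and Chac1, Trib3, Asns and Herpud1 held it. The UPRE core TGACGTGG (0.676% of promoters) and the CRE core TGACGTCA (1.79%) were in none of the 10 windows. No searched match overlapped another, and the capitals below mark the fixed letters of the match. In the windows of Herpud1, Chac1 and Trib3 the CARE reads as its reverse complement.
Hspa5 ERSE, chr2:34772005-34772063, plus strand: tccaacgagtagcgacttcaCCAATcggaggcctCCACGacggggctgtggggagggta
Herpud1 ERSE-II, chr8:94386357-94386407, plus strand: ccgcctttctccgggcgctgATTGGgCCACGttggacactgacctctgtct
Herpud1 CARE, chr8:94386297-94386344, plus strand: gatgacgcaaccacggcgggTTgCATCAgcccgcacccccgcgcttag
Chac1 CARE, chr2:119351029-119351076, plus strand: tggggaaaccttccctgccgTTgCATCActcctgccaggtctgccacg
Trib3 CARE, chr2:152344019-152344066, minus strand: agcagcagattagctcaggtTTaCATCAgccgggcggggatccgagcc
Asns CARE, chr6:7693205-7693252, minus strand: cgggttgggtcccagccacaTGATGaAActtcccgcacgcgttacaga
A match describes the letters in this window and is not evidence of binding, and the absence of a match says only that the letters are not there. Herpud1 was the single member with elements of both kinds.

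Where the 10 genes were expressed came first. In both libraries Ddit3, which encodes CHOP, a transcription factor of prolonged stress, was far higher in neutrophils than in any other class. Asns, Trib3 and Chac1, which ATF4 activates when amino acids are short, were highest in keratin-positive cells. Sdf2l1, a co-chaperone of the Hspa5 product, was lowest in neutrophils, and Herpud1, part of the machinery that exports misfolded proteins for degradation, was highest in dendritic cells.

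**Figure D1:**
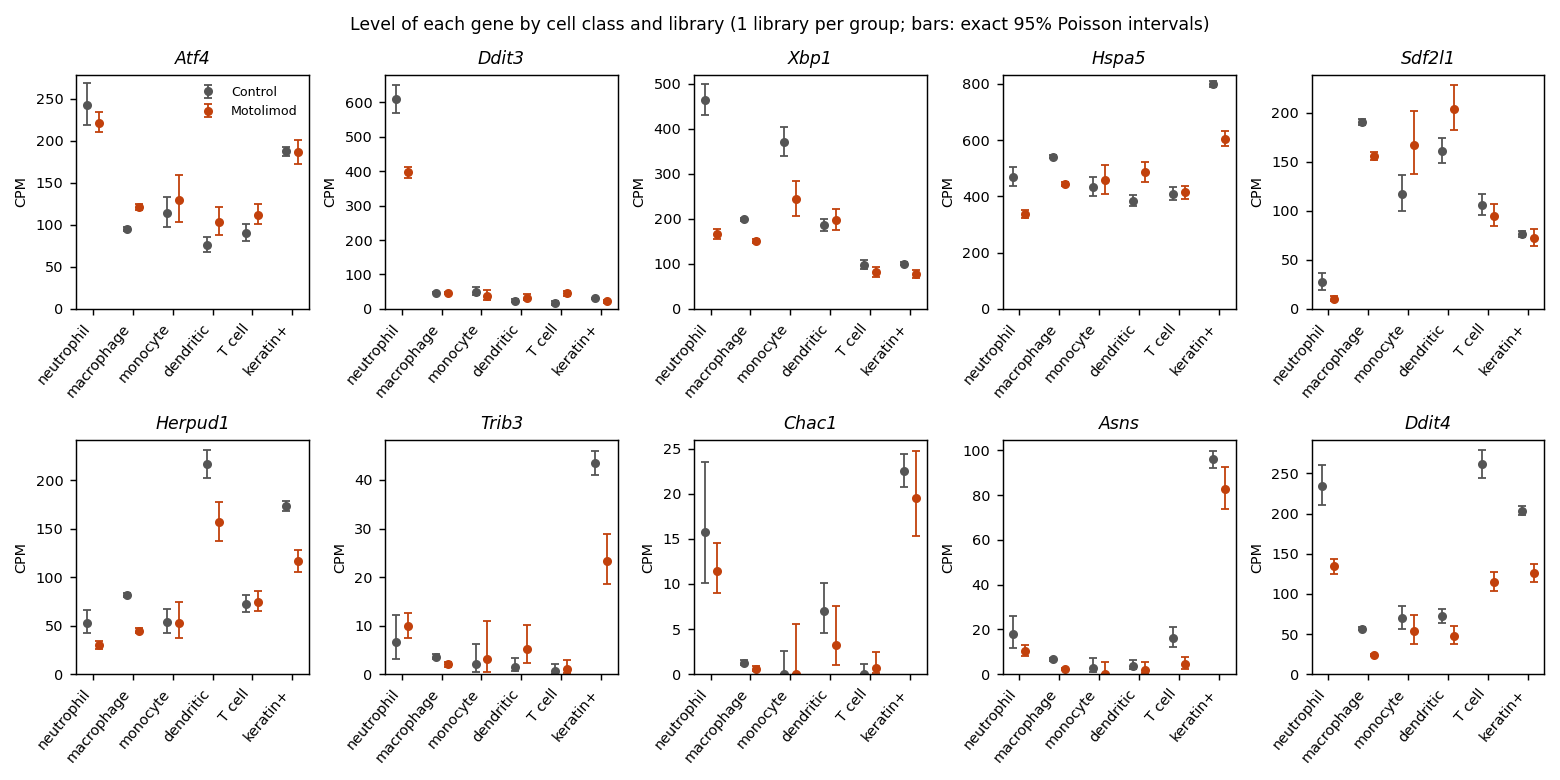
Level of each of the 10 genes in CPM (linear axis from 0) in 6 gated cell classes of the Control (grey) and Motolimod (orange) libraries, with exact 95% Poisson intervals. Ddit3 stands at 609 and 397 CPM in neutrophils and at no more than 50.5 CPM elsewhere, while Asns, Trib3 and Chac1 peak in keratin-positive cells.

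Ddit3 (chromosome 10, 127290774 to 127296288 on the plus strand, mm10) measured 609 CPM in Control and 397 CPM in Motolimod neutrophils. Its next highest class was monocytes in Control, at 50.5 CPM, and macrophages in Motolimod, at 46.9 CPM. The lowest were T cells in Control, at 16.7 CPM, and keratin-positive cells in Motolimod, at 21.5 CPM, so that the top class exceeded the bottom one 36.5-fold and 18.4-fold. Below neutrophils the order was loose: of the 4 neighbouring pairs of classes, the intervals of 3 overlapped in Control (all but macrophages and keratin-positive cells) and those of all 4 in Motolimod. After thinning each cell to 1000 UMIs, which puts classes of different depth on one footing, 39.9% of Control and 28.1% of Motolimod neutrophils had a Ddit3 UMI, against 5.24% and 5.06% of macrophages. Unthinned, the shares were 63.0% and 46.8% in neutrophils. For comparison, the macrophage gene C1qb, which neutrophils should lack, was seen in 5.31% and 4.07% of thinned neutrophils and in 87.6% and 72.1% of thinned macrophages. The locus also carries Mars and Gm4189 on the opposite strand and a second Ddit3 identifier, which had 0 UMIs in both libraries. How strand was used in counting is not given in the sources used here, so reads of these genes cannot be told apart with certainty.

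Atf4, the transcription factor at the centre of the integrated stress response, followed the same order of classes in both libraries. It stood at 243 and 222 CPM in neutrophils, 188 and 186 CPM in keratin-positive cells, 114 and 129 CPM in monocytes, and 76.0 and 104 CPM in dendritic cells, the lowest class. The intervals of T cells overlapped those of macrophages and of dendritic cells in both libraries, and in Motolimod those of monocytes and macrophages overlapped as well. The spread between classes, 3.19-fold in Control and 2.13-fold in Motolimod, was small beside that of Ddit3.

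The order of classes for Xbp1 differed between the libraries. In Control it was highest in neutrophils (463 CPM), then in monocytes (370 CPM) and macrophages (199 CPM). In Motolimod monocytes led at 243 CPM, followed by dendritic cells at 197 CPM and neutrophils at 166 CPM, with overlapping intervals between neighbours. Only 3 plasma cells were found, all in Motolimod, and their summed level of Xbp1, the factor that antibody-secreting cells need, was 2313 CPM.

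Hspa5, the main chaperone of the endoplasmic reticulum (BiP), differed least between classes. It ranged 2.08-fold in Control, from 384 CPM in dendritic cells to 798 CPM in keratin-positive cells, and 1.79-fold in Motolimod, from 337 CPM in neutrophils to 605 CPM in keratin-positive cells. Its order differed between the libraries too: dendritic cells were the lowest class in Control and came next to keratin-positive cells in Motolimod. Sdf2l1 spanned 7.06-fold in Control, from 27.0 CPM in neutrophils to 190 CPM in macrophages. In Motolimod it spanned 20.1-fold, from 10.2 CPM in neutrophils to 204 CPM in dendritic cells. Neutrophils thus carried Hspa5 at a level near that of other cells but had little of its co-chaperone. Herpud1 was highest in dendritic cells, at 216 and 157 CPM, next in keratin-positive cells, at 173 and 116 CPM, and lowest in neutrophils, at 53.3 and 30.01 CPM. An antisense gene, Gm15890, overlaps Herpud1, and its reads could have been counted there.

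Asns, which makes asparagine, stood at 95.9 and 82.8 CPM in keratin-positive cells and at no more than 17.8 and 10.3 CPM in any other class. Trib3, a pseudokinase induced by ATF4 and CHOP, stood at 43.4 and 23.2 CPM there, against 6.58 and 9.84 CPM in neutrophils. Chac1, an enzyme that degrades glutathione, stood at 22.5 and 19.6 CPM, with neutrophils next at 15.8 and 11.5 CPM. In Control the Chac1 intervals of keratin-positive cells and neutrophils overlapped. Keratin-positive cells were deep, so their share of all UMIs is the baseline for their share of a gene. In Control they made up 8.32% of passed barcodes and held 26907246 of the 126829095 UMIs of all genes. They held 68.6% of all Asns, 68.5% of all Trib3 and 69.9% of all Chac1 UMIs there. In Motolimod they were 0.709% of barcodes, with 3576079 of 61293538 UMIs, and held 54.1%, 29.3% and 35.9%. Over all passed barcodes together Asns was 29.7 CPM in Control and 8.92 CPM in Motolimod, while within keratin-positive cells it was 95.9 and 82.8 CPM.

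The 3 genes were also found together in single keratin-positive cells. Among those with at least 16000 UMIs, 124 of 588 Control cells (21.1%, exact interval 17.9 to 24.6) and 12 of 65 Motolimod cells (18.5%, 9.92 to 30.03) had a UMI of all 3. Among macrophages over the same depth, 3 of 1962 Control cells (0.153%) did, and 0 of 554 Motolimod cells, where the exact interval reached 0.664%. The keratin-positive cells were still deeper, with medians of 43340 and 52790 UMIs against 21750 and 20520. The part of depth in the share was not tested. In the same cells Asns was 96.2 and 83.0 CPM in keratin-positive cells and 7.67 and 3.21 CPM in macrophages. Chac1 was the most unevenly spread of the 3, with 76.7% of its Control and 72.9% of its Motolimod UMIs in the 10% of keratin-positive cells with most of them and up to 32 and 27 UMIs in 1 cell. Over keratin-positive cells, Pearson's r of log-scaled levels was 0.51 (623 Control cells) and 0.64 (66 Motolimod cells) for Trib3 and Asns, and 0.41 and 0.57 for Trib3 and Chac1. These are descriptions of cells of 1 library each.

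**Figure D2:**
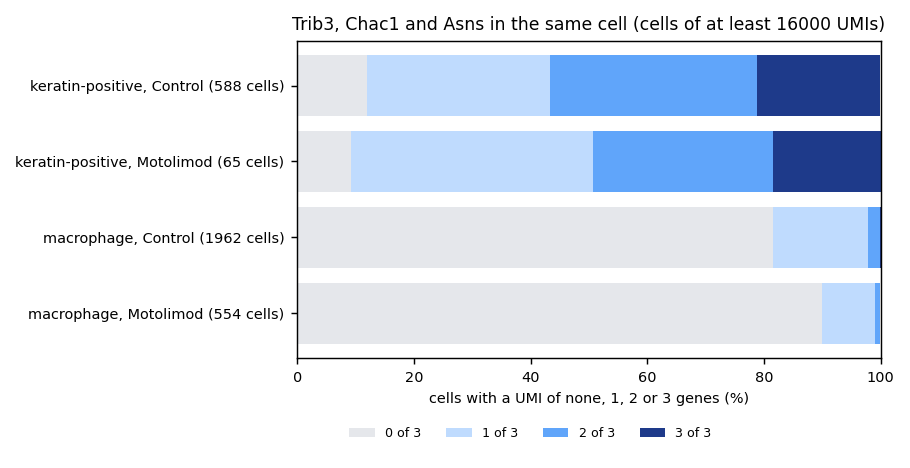
Share of cells (percent, horizontal axis) with a UMI of none, 1, 2 or all 3 of Trib3, Chac1 and Asns, for keratin-positive cells and macrophages of at least 16000 UMIs in each library. All 3 genes were seen in 21.1% and 18.5% of keratin-positive cells and in 0.153% and 0% of macrophages.

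Ddit4 (REDD1, an inhibitor of the growth kinase complex mTORC1 that is also induced by hypoxia and glucocorticoids) was highest in T cells in Control, at 261 CPM, next to neutrophils at 235 CPM with an overlapping interval. In Motolimod neutrophils led at 134 CPM, and the intervals of keratin-positive cells (126 CPM) overlapped those of neutrophils and of T cells (115 CPM). Macrophages were the lowest class in both, at 56.6 and 23.7 CPM.

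The comparison of the libraries within each class asked how the stress genes differed between tumours with and without motolimod at the level of 1 cell type. A gene was called higher or lower if its CPM differed at least 1.5-fold, among genes of at least 20 CPM in either library, in classes of at least 100 cells in each. In neutrophils, macrophages, dendritic cells and T cells alike, 7 of the 10 genes reached that minimum. Asns, Trib3 and Chac1 did not, and their levels in these classes carry no call.

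Neutrophils of the Motolimod library had lower Xbp1, Ddit3 and Ddit4, and lower counts of Herpud1 and Sdf2l1, which were scarce. Xbp1 was 463 CPM in Control and 166 CPM in Motolimod, a ratio of 0.359 (0.326 to 0.396). Ddit3 was 609 and 397 CPM (ratio 0.652, 0.604 to 0.704), and Ddit4 235 and 134 CPM (0.572, 0.504 to 0.649). Atf4 stayed within the 1.5-fold band, at 243 and 222 CPM (0.913), as did Hspa5, at 470 and 337 CPM (0.718). None of the 7 genes was higher, where 17.4% of the 4380 genes tested were, and 5 were lower, where 22.3% of all genes were. The median log2 ratio of the 7 was -0.81, and that of all genes -0.04. Equal depth gave the same picture for Xbp1, with a UMI in 29.1% of Control (25.02 to 33.4) and 12.5% of Motolimod neutrophils (11.2 to 13.9) after thinning. The Xbp1 ratio was 0.268 to 0.449 in the 4 bins of UMIs per cell below 16000, above which 5 and 3 cells remained.

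The neutrophil gate held different cells in the 2 libraries. Cluster 1, led by Lcn2, Prok2 and Csta3, held 57.2% of Motolimod but only 5.80% of Control neutrophils. Most Control neutrophils were in cluster 9 (48.4%, led by Ngp, Lrg1 and Cxcr2) and cluster 7 (37.2%, led by Retnlg, G0s2 and S100a9), where 16.8% and 24.2% of the Motolimod gate fell. Within those 2 clusters the differences in Xbp1, Ddit3 and Ddit4 were present as well. In cluster 7, Ddit3 was 1221 CPM in Control and 380 CPM in Motolimod (ratio 0.312, 0.276 to 0.351), Xbp1 501 and 258 CPM (0.516) and Ddit4 466 and 166 CPM (0.356). In cluster 9, Ddit3 was 464 and 263 CPM (0.567, 0.473 to 0.678), Xbp1 520 and 225 CPM (0.432) and Ddit4 109 and 51.6 CPM (0.475). Herpud1 and Sdf2l1 did not keep their difference there. Herpud1 had ratios of 1.01 (0.550 to 1.98) and 0.821 (0.495 to 1.36), and Sdf2l1 rested on 1 and 6 UMIs in cluster 7 and on 3 and 4 UMIs in cluster 9, out of 41 and 62 in the whole gate.

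**Figure D3:**
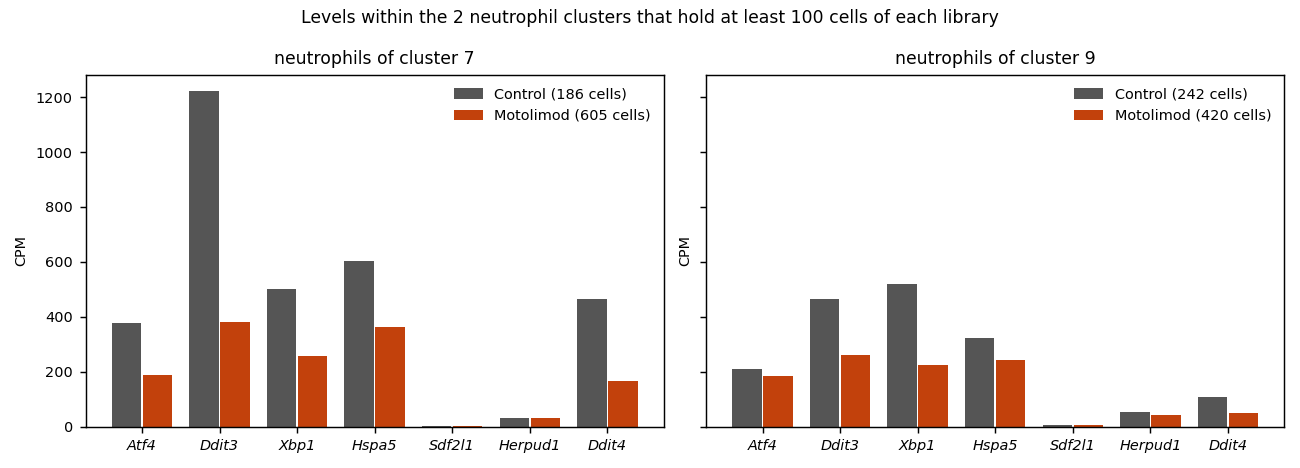
Level in CPM (bars from 0) of the 7 more abundant genes in neutrophils of cluster 7 and cluster 9, Control in grey and Motolimod in orange, with cell numbers in the legends. Ddit3, Xbp1 and Ddit4 are lower in Motolimod in both clusters, whereas Herpud1 and Sdf2l1 are low in both libraries.

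The Ddit3 ratio in neutrophils depended on which barcodes were kept. With at least 1000 genes, 2000 UMIs and at most 5% mitochondrial UMIs it was 396 CPM in Control and 369 CPM in Motolimod, a ratio of 0.9296. These criteria were applied together, and which of them moved the ratio was not tested. Ddit3 was higher in shallow Control neutrophils, at 781 CPM in cells of 800 to 2000 UMIs and 297 CPM in those of 8000 to 16000, and its ratio was 0.538 to 0.571 within each of the 4 bins. Neutrophils split by Ccl3 and Ccl4, chemokine genes of activated neutrophils, differed too. In cells high for both chemokines together (224 and 1852 cells) Ddit3 was 803 and 413 CPM (ratio 0.514, 0.468 to 0.566). In cells low for them (276 and 646 cells) it was 448 and 345 CPM (0.770, 0.671 to 0.883). Xbp1 had about the same ratio in both, 0.337 and 0.374. Of the members past the minimum, 5 of 6 were lower in the high cells, where 18.6% of all genes tested were, and 4 of 7 in the low cells, where 17.8% were. The high and low cells are ranges of a level (at least or under 50 UMIs of both genes per 10000), with 7.0% and 5.44% of the neutrophils within 1.2-fold of the cut.

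Other measures moved with the neutrophil result, and their part in it was not tested. Over the whole gate, 9 of 10 heat shock chaperone genes past the minimum were lower in Motolimod and 0 higher. Hsp90ab1 (634 and 197 CPM) and Hspa8 (833 and 355 CPM) were among the lower ones. Of 5 genes induced by glucocorticoids 4 were lower, such as Per1 (341 and 125 CPM) and Tsc22d3 (156 and 75.9 CPM), and of 10 immediate early genes 5 were lower and 1, Egr1, higher. The median share of mitochondrial UMIs was 0.354% in Control and 0.100% in Motolimod neutrophils. The 9 keratin markers summed to 0.678 and 0.223 per 10000 UMIs, with Krt7, Epcam, Cldn4 and Cldn7 at 0 in Control and Cldn4 at 0 in Motolimod. Krt8 stood at 27.0 and 1.48 CPM in neutrophils, with a UMI in only 1.6% and 0.320% of them. So few cells held it that these values cannot gauge RNA spread over all droplets. In Control, Xbp1 and Ddit3 stood at 100 and 30.6 CPM in keratin-positive cells and at 463 and 609 CPM in neutrophils. Atf4 and Ddit4 were also lower in keratin-positive cells than in neutrophils. Hspa5, Herpud1, Sdf2l1, Asns, Trib3 and Chac1 were higher in them. What RNA of other cells added to the neutrophil values was not tested.

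The wider pathway in the neutrophil gate, taken from lists of textbook genes, was mostly lower or within the band. Of all genes tested, 22.3% were lower and 17.4% higher. Part of the gate, more of it in Control than in Motolimod, fell outside the neutrophil clusters described above. The counts cover the whole gate and are not given within those clusters, where Herpud1 and Sdf2l1 did not keep their difference. Of 14 endoplasmic reticulum chaperones and folding enzymes, 7 were lower and 0 higher, including Fkbp2 (54.6 and 19.7 CPM, ratio 0.360), Manf (113 and 59.7 CPM, 0.530) and Dnajc3 (34.2 and 17.2 CPM, 0.503). By chemokine level, 3 of 12 chaperone genes were lower in the high cells and 8 of 14 in the low ones. Of 12 XBP1 targets and degradation genes over the whole gate, 2 were lower, Sec23b and Selenos, and 0 higher. That share of lower genes was below that of all genes. In the high cells Dnajb9 (0.550), Selenos (0.588), Sec23b (0.340) and Serp1 (0.644) were lower, where 18.6% of all genes were, and Edem1 (1.73) was higher. In the low cells only Ssr1 (0.651) was lower and only Hspa13 (2.56) higher. Over the whole gate, 1 of 7 sensors and regulators was lower, Creb3. Of 13 hypoxia genes 3 were lower, Slc2a1, Ldha and Higd1a, and 0 higher. The ATF4 side went both ways: Slc7a11, the cystine transporter, was higher (312 and 1400 CPM, ratio 4.49, 4.09 to 4.93), as was Aars, while Phgdh, Eprs and Sars were lower, out of 8 genes. Slc7a11 and Sars kept their direction in both the high and the low cells. Aars was higher only in the high cells (13.1 and 32.5 CPM, 2.48) and at 0.877 in the low ones. Phgdh (55.3 and 2.11 CPM) and Eprs (36.1 and 19.0 CPM) were lower in the low cells and under the minimum in the high ones. Among 11 ATF4 and CHOP stress targets in the whole gate, Bcl2l11 (144 and 332 CPM, 2.30) and Gdf15 (71.7 and 154 CPM, 2.15) were higher. Nupr1 (119 and 29.5 CPM, 0.248) and Atf3 (1133 and 707 CPM, 0.624) were lower. Gdf15, a secreted stress cytokine, went opposite ways in the subgroups. It was higher in cells high for Ccl3 and Ccl4 (40.7 and 189 CPM, 4.63, 3.18 to 7.01), where 24.5% of all genes were higher. It was lower in cells low for them (97.4 and 42.2 CPM, 0.433, 0.305 to 0.612), where 18.3% were higher and 17.8% lower.

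**Figure D4:**
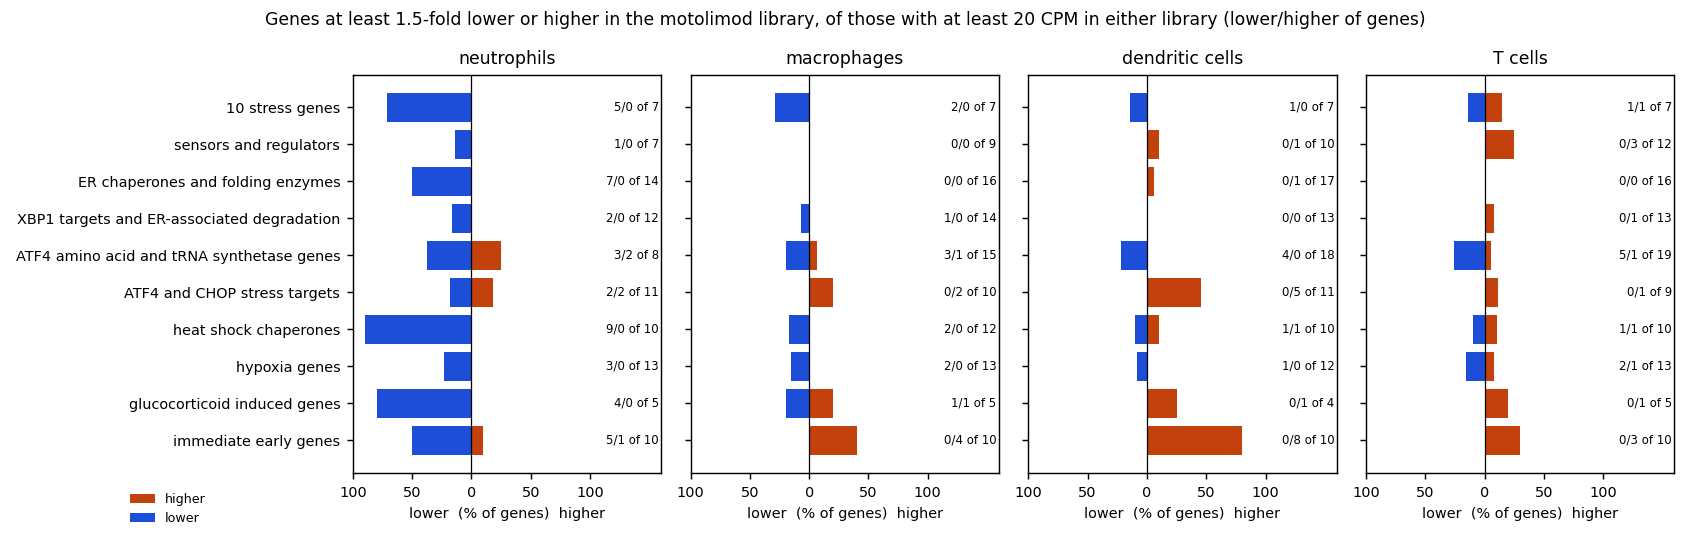
Percent of genes of each list that were at least 1.5-fold lower (blue, left) or higher (orange, right) in the Motolimod library, among genes of at least 20 CPM in either library, in 4 cell classes, with counts at the right. In the whole neutrophil gate 9 of 10 heat shock and 7 of 14 endoplasmic reticulum chaperone genes are lower. In macrophages as a whole none of 16 endoplasmic reticulum chaperones passes 1.5-fold.

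Macrophages differed in 2 of the 7 genes. Ddit4 was 56.6 CPM in Control and 23.7 CPM in Motolimod (ratio 0.418, 0.387 to 0.450), and Herpud1 81.6 and 45.0 CPM (0.552, 0.522 to 0.584). The other 5 stayed within the band: Ddit3 was 46.9 CPM in both (0.999), Atf4 95.0 and 121 CPM (1.28), Xbp1 199 and 151 CPM (0.756), Hspa5 541 and 443 CPM (0.819) and Sdf2l1 190 and 156 CPM (0.820). Of 5680 genes tested, 5.12% were lower and 9.10% higher, and none of the 7 was higher. The median log2 ratio of the 7 was -0.29, against 0.03 for all genes. The Motolimod macrophages were shallower, and across 5 bins of UMIs per cell the ratio was 0.247 to 0.453 for Ddit4 and 0.465 to 0.696 for Herpud1. At 1000 UMIs, 4.89% of Control and 2.03% of Motolimod macrophages had a Ddit4 UMI, and 7.36% and 3.603% a Herpud1 UMI. Without thinning the shares were 30.1% and 10.1% for Ddit4.

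Both differences ran through the macrophage states. States were set by marker scores, with 18.2% and 15.8% of macrophages near a cut, and 7 groups had at least 100 cells in each library. Ddit4 was below its Control level in all 7 and past 1.5-fold in 6, from a ratio of 0.172 in Cd72/Vcam1 macrophages (40.7 and 6.997 CPM) to 0.735 in Mmp12 macrophages (87.7 and 64.4 CPM). Herpud1 was likewise below in all 7 and past 1.5-fold in 6, from 0.413 in Mmp12 macrophages (62.0 and 25.6 CPM) to 0.731 in cycling ones (82.1 and 60.03 CPM). Of all genes tested, 1.6% were lower in Ass1/MHC-II macrophages, 2.08% in cycling, 3.14% in Cd72/Vcam1, 4.3% in Mmp12, 7.92% in stateless, 8.77% in Cbr2/Tppp3 and 10.8% in Gpnmb/Cd36 macrophages. The other members passed 1.5-fold in at most 1 group each: Xbp1 (0.640) and Sdf2l1 (0.644) were lower in Cbr2/Tppp3 macrophages, and in Gpnmb/Cd36 macrophages Hspa5 was lower (0.554) and Atf4 higher (1.58), where 22.2% of all genes were higher. Ddit3 lay between 0.669 and 1.11 and passed it in none. Lyve1/Cd209 macrophages, with 173 and 40 cells, gave levels only.

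**Figure D5:**
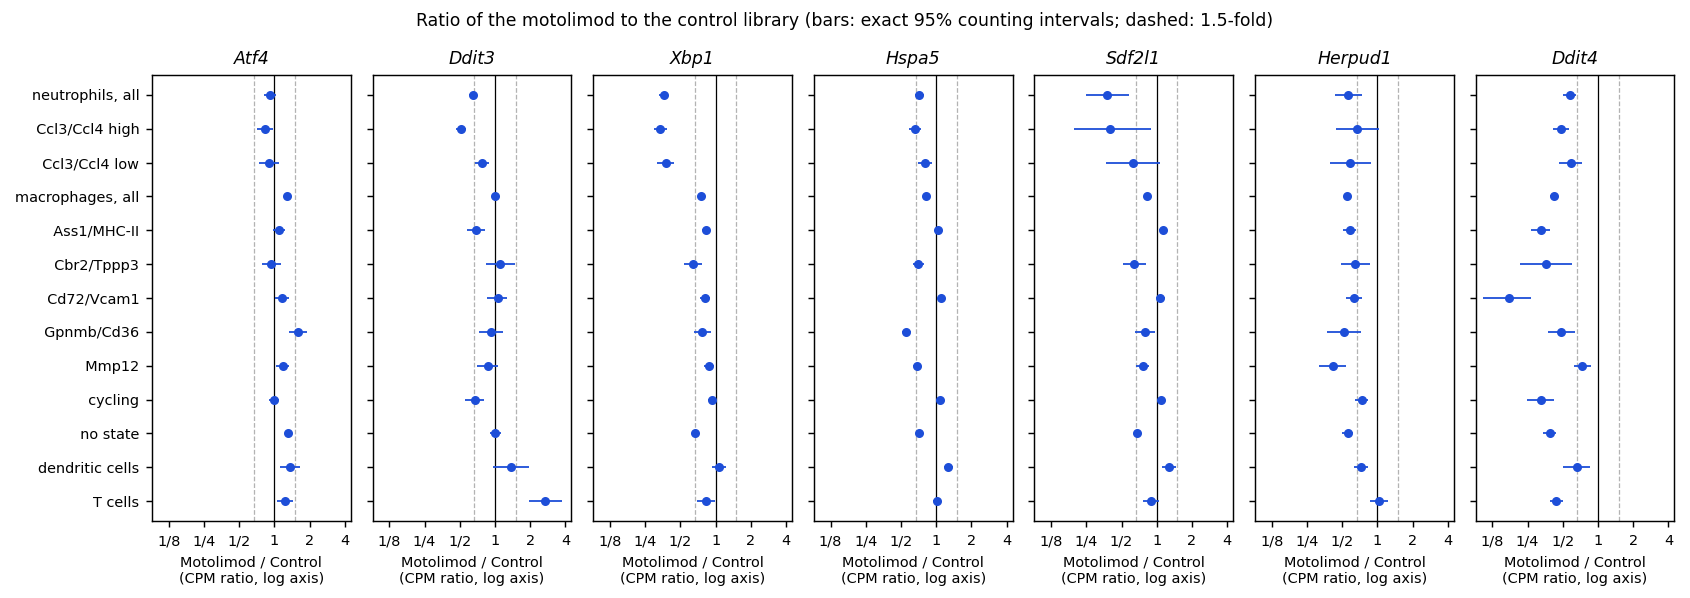
Ratio of Motolimod to Control CPM (logarithmic horizontal axis) for the 7 more abundant genes in neutrophils, macrophages and their subgroups, dendritic cells and T cells, with exact 95% counting intervals; the solid line marks 1 and dashed lines mark 1.5-fold. Ddit4 lies left of 1 in all 13 groups, Herpud1 in all but T cells, and Ddit3 lies well right of 1 in T cells.

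Unsupervised clusters divided the macrophages unevenly between the libraries, and the 2 differences held within them. Cluster 0, led by Cbr2, Tppp3 and Igf1, held 4.04% of Control and 43.4% of Motolimod macrophages, and clusters 2 (led by Cd300e, Nr1h3 and Gbp2b) and 4 (led by Mmp12, Mmp13 and Slc7a2) held 27.1% and 22.4% of Control ones. In the 6 clusters with at least 100 cells of each library, the Ddit4 ratio was 0.178 to 0.612 and the Herpud1 ratio 0.531 to 0.723. These 6 include cluster 3, whose leading genes hold monocyte markers, and cluster 12, whose leading genes hold NK cell markers. In cluster 13, which had 237 and 99 cells and so no ratio, Herpud1 went the other way, at 70.7 and 95.5 CPM. The monocyte markers summed to 9.44 per 10000 UMIs in Control and 15.8 in Motolimod macrophages, and their part in the result was not tested.

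The pathway around these genes differed little over macrophages as a whole and more in some of their states. Over all macrophages, where 5.12% of genes were lower and 9.10% higher, none of 16 endoplasmic reticulum chaperones and none of 9 sensors passed 1.5-fold. Of 14 XBP1 targets and degradation genes only Edem2 was lower (40.5 and 27.0 CPM, 0.666). Of 15 ATF4 amino acid genes, Shmt2 (0.529), Psat1 (0.560) and Mthfd2 (0.593) of the serine and one-carbon route were lower and Slc7a11 higher (23.3 and 52.2 CPM, 2.24). Atf3 (387 and 634 CPM, 1.64) and Bcl2l11 (49.0 and 86.9 CPM, 1.78) were higher among 10 ATF4 and CHOP stress targets. Of 13 hypoxia genes 2 were lower, Ldha and Slc2a1, and of 5 glucocorticoid genes Fkbp5 was lower and Dusp1 higher. Among immediate early genes Egr1 (3.22), Fosb (2.34), Dusp1 (1.72) and Ier3 (1.51) were higher and the others within the band. Slc7a11 was higher in neutrophils, macrophages and T cells alike.

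Gpnmb/Cd36 macrophages (103 Control and 624 Motolimod cells) differed more, with 10 of 13 hypoxia genes lower and 0 higher, where 10.8% of all genes were lower. Among them were the glucose transporter Slc2a1 (256 and 61.5 CPM, 0.240), Ndrg1 (267 and 73.8 CPM, 0.277) and Ldha, a glycolytic enzyme (2035 and 826 CPM, 0.406), beside Ddit4 at 77.6 and 37.7 CPM (0.486). In the same cells 5 of 16 chaperone and folding genes were lower: Ero1l (330 and 102 CPM, 0.308), P4hb (492 and 226 CPM, 0.459), Pdia4 (0.492), Manf (0.554) and Dnajb11 (0.647). Of 10 sensors and regulators there, Ern1 (IRE1, 0.416), Nfe2l2 (0.637) and Creb3 (0.651) were lower and Eif2ak2 (PKR) was higher (1.94). The ATF4 lists went both ways there. Slc7a11 (4.07), Gdf15 (3.39), Wars (2.09), Atf3 (1.78) and Bcl2l11 (1.56) were higher, where 22.2% of all genes were. Ero1l, Sars (0.472), Mthfd2 (0.492), Eif4ebp1 (0.498), Nupr1 (0.585) and Aars (0.643) were lower. Egr1 (4.38), Fosb (3.63), Dusp1 (2.49), Zfp36 (1.90), Fos (1.84), Ier3 (1.81) and Jun (1.77) were higher, and the other immediate early genes within the band. In Cbr2/Tppp3 macrophages (139 and 804 cells), where 8.77% of all genes were lower, 6 of 12 hypoxia genes were lower, among them Pgk1 (0.431), Ldha (0.442), Bnip3 (0.454) and Vegfa (0.520), as were 4 of 16 chaperone genes. In the other 5 groups 1 to 3 hypoxia genes and 0 to 3 chaperone genes were lower. Ddit4 is itself a target of hypoxia, and the part of the hypoxia genes in its ratio was not tested. Of 15 ATF4 amino acid genes, 8 were lower in stateless macrophages, where 7.92% of all genes were, against 3 over all macrophages.

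T cells showed Ddit3 and Ddit4 apart. Ddit3 was 16.7 CPM in Control (57 UMIs) and 45.0 CPM in Motolimod (134 UMIs), a ratio of 2.70 (1.97 to 3.75). Ddit4 was 261 and 115 CPM, a ratio of 0.440 (0.387 to 0.499). The other 5 genes were within the band, with Hspa5 at 410 and 414 CPM, Herpud1 at 72.5 and 74.9 CPM and Xbp1 at 98.2 and 81.3 CPM. Ddit3 was the single gene of the 7 that was higher, where 11.7% of 5910 genes were, and Ddit4 the single one that was lower, where 6.36% were. The median log2 ratio of the 7 was 0.02 and that of all genes 0.06. At 1000 UMIs, 1.41% of Control (0.460 to 3.26) and 4.56% of Motolimod T cells (2.81 to 6.95) had a Ddit3 UMI, against 13.5% and 18.8% unthinned.

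The Ddit3 level in T cells was low, and other values moved with it. In cluster 10, led by Gzmf, Gzmd and Gzme, which held 58.6% of Control and 66.7% of Motolimod T cells, Ddit3 was 16.9 and 44.0 CPM (ratio 2.60, 1.80 at the lower end). In cluster 14, with 76 and 78 T cells, it was 14.4 and 13.6 CPM, from 3 and 4 UMIs, and in cluster 17, with 58 and 16 T cells, from 9 and 0 UMIs. In CD8 T cells, a subset chosen after seeing the data, the ratio was 2.32, where 12.9% of all genes were higher, and outside cycling T cells it was 2.50, where 10.2% were. The neutrophil gene S100a9 stood at 23.4 and 50.1 CPM in T cells and at 42706 and 41404 CPM in neutrophils, where Ddit3 stood at 609 and 397 CPM. Monocyte markers summed to 13.1 and 22.5 per 10000 UMIs in T cells. Among immediate early genes Fosb (3.46), Egr1 (3.09) and Fos (1.63) were higher over all T cells, where 11.7% of genes were. The others of that list were within the band. Dnajb9 (2.24) was the single XBP1 target past 1.5-fold, and Bcl2l11 (1.69) the single ATF4 and CHOP stress target. Of the heat shock genes Hspa1a (2.07) was higher and Hspd1 (0.538) lower. The part of these values in the result was not tested.

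The pathway lists gave other counts without the cycling T cells, which made up 96 of 355 Control but 59 of 442 Motolimod T cells. Over all T cells, where 6.36% of genes were lower and 11.7% higher, 5 of 19 ATF4 amino acid genes were lower (Psat1, Phgdh, Mthfd2, Slc7a5 and Yars) and Slc7a11 was higher. Outside cycling T cells, where 5.67% of all genes were lower, none of those 5 passed 1.5-fold, with ratios of 0.6996 for Psat1, 0.751 for Phgdh, 0.817 for Mthfd2, 0.761 for Slc7a5 and 0.893 for Yars. Of 18 amino acid genes past the minimum there, 0 were lower, and Slc7a11 (9.18 and 28.1 CPM, 3.06) and Shmt2 (13.1 and 24.8 CPM, 1.89) were higher. Of 12 sensors and regulators, Eif2ak3 (PERK), Atf6 and Eif2ak1 were higher and 0 lower over all T cells. Outside cycling cells Atf6 (1.53), Eif2ak1 (1.58) and Eif2ak2 (2.11) were higher, while Eif2ak3 was at 1.45. Of 13 hypoxia genes, 2 were lower over all T cells (Ldha and Ndrg1) and Vegfa was higher, and 5 were lower and 0 higher outside cycling cells, where Ddit4 was at 225 and 121 CPM (0.537).

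In dendritic cells Ddit4 was the single member past 1.5-fold, at 72.4 CPM in Control and 47.8 CPM in Motolimod (ratio 0.659, 0.503 to 0.855), where 5.60% of 5518 genes were lower and 12.8% higher. Hspa5 (384 and 486 CPM, 1.27), Sdf2l1 (161 and 204 CPM, 1.27), Atf4 (76.0 and 104 CPM, 1.37) and Ddit3 (24.0 and 32.9 CPM, 1.37) lay above 1 and within the band. The median log2 ratio of the 7 was 0.34 and that of all genes 0.08. Dendritic types were mixed unequally, since the migratory type accounted for 103 of 290 Control cells but 29 of 116 Motolimod cells. Those migratory cells, too few for a ratio, had Ddit3 at 18.9 and 100 CPM, Hspa5 at 154 and 451 CPM and Herpud1 at 244 and 355 CPM. Their part in the ratios of all dendritic cells was not tested. Of 11 ATF4 and CHOP stress targets 5 were higher in dendritic cells (Atf3, Nupr1, Gdf15, Ppp1r15a and Pmaip1) and 0 lower, and so were 8 of 10 immediate early genes. The ATF4 amino acid genes went the other way: of 18, 4 were lower and 0 higher, namely Phgdh (25.5 and 6.45 CPM, 0.253), Mthfd2 (144 and 72.3 CPM, 0.503), Shmt2 (0.528) and Iars (0.592). Of 12 hypoxia genes 1 was lower, Ndrg1.

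Across the 29 class and library values with at least 50 cells, the 10 genes fell into patterns of their own. On log2(CPM + 10), Trib3 and Asns had a Pearson r of 0.81, Chac1 and Asns 0.74, and Ddit3 and Atf4 0.75, whereas Sdf2l1 went against Atf4 (-0.76) and Ddit3 (-0.73). Among 5478 genes of at least 50 CPM in 1 of these values, the genes most like Sdf2l1 were Dnajb11 (0.94), Slc35b1 (0.94) and Mgat2 (0.93). Those most like Hspa5 were P4hb (0.81), Agpat5 and Srpr, and those most like Ddit3 were Ell (0.96), S100a9 (0.96) and E230032D23Rik (0.95). Asns was most like Tinagl1 (0.91) and Ppic, Trib3 most like Cav1 (0.89), Fosl1 and Map1b, and Chac1 most like Id1 (0.83), Pdlim7 and Snai1. Xbp1 was most like I830077J02Rik (0.85), Gm19951 and Gpr35, Atf4 most like Slpi (0.90), Mapk6 and Sgms2, Herpud1 most like Gtpbp4 (0.85), Acadl and Gnb4, and Ddit4 most like Yipf4 (0.81), Tes and Bnip3l. The values share libraries and parent classes, so these are descriptions. Asns, Trib3 and Chac1 were highest in keratin-positive cells, and Ddit3 and Atf4 in neutrophils. How far the few values of those classes set each r was not tested. Over single cells of at least 2000 UMIs, Hspa5 and Sdf2l1 had an r of 0.37 and 0.38 in macrophages and 0.46 in dendritic cells of both libraries, and in macrophages both genes also followed log2 UMIs per cell (Sdf2l1 0.33 and 0.42, Hspa5 0.23 and 0.41).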

How the data were processed

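Per the file headers, the deposited matrices hold whole UMI counts that were not normalized. They come from Cell Ranger on the mm10 build, which the submitters' processing notes give as version 5.0.1 and the file headers as 7.1.0. Strand and intron settings are not given in the sources used here. There were 127609378 UMIs in 8099 Control barcodes and 62057685 UMIs in 10037 Motolimod barcodes. Groups follow the treatment label.

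Barcodes were kept from 300 genes and 800 UMIs upward, with up to 10% of UMIs mitochondrial. Gates used markers summed per 10000 UMIs, with at least 3 markers seen: at least 50 for neutrophils, 20 for macrophages and monocytes, 8 for T and dendritic cells and 4 for keratins. Barcodes over several lineage gates were removed (655 Control and 807 Motolimod), and 513 and 904 met no gate. Scrublet called 0 doublets in each library and so had not worked. Macrophage states needed a marker score of at least 1. Leiden clusters (2000 variable genes, 30 components, 15 neighbours, resolution 1) used both libraries without integration.

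CPM came from UMIs summed over a class, with exact Poisson intervals. Ratios have exact conditional binomial intervals and shares exact Clopper-Pearson ones, all at 95% and for counting error only. No test was possible with 1 library per group. The interval code was tested on simulated data. The genes and lists were chosen with earlier results of these data known. The text names the 10 genes in every class, up to 3 highest and 3 lowest genes of each list in neutrophils and macrophages, and the 3 genes most like each member, of which 1 is not reported here; list genes named in T cells, dendritic cells and subgroups are mostly those past 1.5-fold, chosen after their values were seen. The gates, states, thinning, scaling and filters were varied. Of 26 ATF4 amino acid genes 25 were measured. Gene positions are from GENCODE for mm10 and promoters from RefSeq. Clusters were made in scanpy 1.11.5 with igraph 0.11.9, leidenalg 0.10.2 and scikit-learn 1.9.0, intervals in scipy 1.17.1 and tables in pandas 2.3.3 and numpy 2.4.6, under Python 3.11.15 with a fixed seed of 1. Plots used matplotlib 3.10.9.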

Additional observations from a re-analysis of the deposited data

Results flagged for a closer look

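The ratio of Motolimod to Control for Ddit3 pointed in opposite directions in 2 cell classes. It was 2.70 in T cells (16.7 and 45.0 CPM) and 0.652 in neutrophils (609 and 397 CPM). The neutrophil ratio was 0.538 to 0.9296 under the 8 alternatives tried and stayed past 1.5-fold in 5 of them. The T cell ratio was 1.96 to 3.23 and stayed past it in all 8. With 1 library per group the difference between the classes was not tested. No other member passed 1.5-fold in one direction in a class and in the other direction in another.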

How the results depend on the processing

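No paired analysis was possible because each group had 1 library. Of 10 ratios past 1.5-fold, 9 kept their direction under all 8 alternatives tried (6 planned and 2 added after seeing the data) and 6 stayed past 1.5-fold under all: Xbp1 and Ddit4 in neutrophils, Herpud1 and Ddit4 in macrophages, and Ddit3 and Ddit4 in T cells. Sdf2l1 in neutrophils turned to 2.93 with cluster classes, on few UMIs, and the cause was not tested; that setting also moved the median log2 ratio of all genes from -0.04 to 0.25. Ddit3 in neutrophils was 0.538 to 0.9296, and inside 1.5-fold with the stricter filter (0.9296), mixed droplets kept (0.773) or median-of-ratios scaling (0.709). The 5 members lower in neutrophils became 3 with the Control mix of UMIs per cell (Xbp1, Ddit3 and Ddit4; added) and 2 at 2-fold (Xbp1 and Sdf2l1). The 2 lower in macrophages became 4 with a mean over cells, 1 at 2-fold and 5 with no minimum CPM. In dendritic cells the 0 higher became 1 with cluster classes (Ddit3), 2 when thinned to 1000 UMIs (Ddit3 and Sdf2l1) and 1 with no minimum, and the 1 lower became 0 with the highest Scrublet scores removed (added), 0 at 2-fold and 3 with no minimum. In T cells the 1 higher became 3 with no minimum, and the 1 lower became 2 when thinned and 2 with no minimum. The thinned shares rise with the depth chosen: Ddit3 was seen in 59.7% and 45.6% of neutrophils at 2000 UMIs. Of 87 levels under the stricter filter, 80 moved by less than their counting interval. Depth limits Asns, Trib3 and Chac1 outside keratin-positive cells, and 1 library per group limits every comparison.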
